A study of Mus musculus with 6 samples.

Results

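Killer cell lectin-like receptor (Klr) genes were examined in ATAC-seq peak lists from peripheral-blood white cells of mice. The members were all protein-coding genes on mouse chromosome 6 whose symbols begin with Klr in the GENCODE annotation of GRCm39. There were 27 of them among 21738 protein-coding genes. A peak was counted for a gene when its summit lay in the gene body or within 3 kb of an annotated start. Of these genes, 25 lay in the natural killer (NK) gene complex, between Klrb1a and Klra2 (chr6:128586190-131224330), and 2, Klrg2 and Klrg1, lay elsewhere on the chromosome.

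ATAC-seq uses the Tn5 transposase to insert adapters into open DNA, so that a peak marks accessible chromatin. The labels gave 3 control and 3 high-altitude de-acclimatization (HADA) libraries of peripheral blood. The study used young adult male C57BL/6j mice. HADA mice were kept for weeks in a hypobaric chamber and then returned to normal oxygen, while control mice stayed in normal oxygen throughout. The day on which blood was taken for this assay is not given in the sources used here. By the study's methods, the cells were unsorted leukocytes left after red cell lysis, while its results call them peripheral blood mononuclear cells. The labels number replicates and do not say that each came from a separate mouse, so p-values measure only the spread between these libraries.

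NK cells kill infected or transformed cells when signals from activating receptors outweigh those from inhibitory ones. Many inhibitory Klr receptors bind class I molecules of the major histocompatibility complex and signal through a motif in the cytoplasmic tail, whereas most activating ones pair with an adaptor protein. Ly49 receptors (Klra genes), the NKR-P1 family (Klrb1 genes), and the CD94 and NKG2 receptors (Klrd1 and Klrc genes) are made mostly by NK cells and by some T cells, each usually in only a subset. By textbook roles, 14 of the 27 genes were put in an inhibitory class and 9 in an activating class. A further 2, Klrd1 and Klre1, encode partner chains, and Klrg2 and Klrh1 were left unclassed.

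The sequences at the summits show what was accessible. The following were read from GRCm39, plus strand, up to 200 bases around the summit. Where a window reached an exon at its edge, at most 30 exon bases were kept. Capitals mark matches to the motifs searched, which were RUNX (TGTGGT), ETS (AGGAAGT), T-box (AGGTGTGA), TCF (TTCAAAG), STAT (TTCNNNGAA) and AP-1 (TGANTCA), on both strands. The start region of Klra2 (chr6:131224069-131224241), with an ETS match in capitals, is shown because it was among the tallest Klr regions. It was also the only Klr region called different between groups.
Klra2 start: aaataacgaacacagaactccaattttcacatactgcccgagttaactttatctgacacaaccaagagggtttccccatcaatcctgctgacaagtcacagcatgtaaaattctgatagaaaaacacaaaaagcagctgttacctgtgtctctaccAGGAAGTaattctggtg
The intron region of Klra2 (chr6:131221971-131222170) is shown because it was found in control lists only.
Klra2 intron: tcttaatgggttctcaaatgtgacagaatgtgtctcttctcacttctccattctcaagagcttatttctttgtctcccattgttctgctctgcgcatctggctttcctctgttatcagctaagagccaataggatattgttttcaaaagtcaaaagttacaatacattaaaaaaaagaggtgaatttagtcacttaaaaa
The tallest Klr region (chr6:131200499-131200698), in another Klra2 intron, is shown for its height. Its central 50 bases occur 10566 times in the genome.
Klra2 repeat: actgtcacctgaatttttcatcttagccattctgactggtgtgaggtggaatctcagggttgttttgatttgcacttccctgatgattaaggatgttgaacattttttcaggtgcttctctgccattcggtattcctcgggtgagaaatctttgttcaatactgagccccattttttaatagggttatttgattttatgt
The Klrb1c intron (chr6:128763656-128763855) is shown because it was found in HADA lists only. It begins with a GA repeat.
Klrb1c intron: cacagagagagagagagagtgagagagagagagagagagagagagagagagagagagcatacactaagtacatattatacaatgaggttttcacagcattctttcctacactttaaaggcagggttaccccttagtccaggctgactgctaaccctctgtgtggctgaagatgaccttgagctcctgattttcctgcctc
The start of Klrd1 (chr6:129568523-129568706), with TCF and AP-1 matches, and the region upstream of Klrc1 (chr6:129657381-129657580), with a RUNX match, were added after their values were seen. Their genes encode the chains of the CD94 and NKG2A receptor.
Klrd1 start: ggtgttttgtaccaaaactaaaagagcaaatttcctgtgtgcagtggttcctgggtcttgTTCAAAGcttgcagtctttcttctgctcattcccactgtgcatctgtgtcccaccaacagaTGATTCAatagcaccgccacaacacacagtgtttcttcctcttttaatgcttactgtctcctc
Klrc1 upstream: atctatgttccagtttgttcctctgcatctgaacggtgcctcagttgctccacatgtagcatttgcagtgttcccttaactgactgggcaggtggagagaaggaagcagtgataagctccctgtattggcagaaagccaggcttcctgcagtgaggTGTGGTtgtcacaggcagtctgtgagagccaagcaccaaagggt

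Few Klr genes had a peak in whole blood leukocytes. Over the 6 libraries, 10 of the 27 genes (37.0%) had a peak in at least 1 library, against 70.8% of all protein-coding genes. A peak in all 6 libraries was found at 3 genes (11.1%), namely Klrg2, Klrb1f and Klra2, against 58.0% of all genes. The lists held 48 Klr peaks among 250978, and these merged into 14 regions among 62876. The 10 genes were Klrg2, Klrb1a, Klrb1c, Klrb1f, Klre1, Klrd1, Klrc1, Klra5, Klra1 and Klra2.

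Each library's list gives a height at the summit. The pileup, the number of fragments stacked at the summit, was solved from the deposited fold enrichment and p-value. It was divided by the library's genome-wide background pileup, which stands for depth, to give a pileup over background. That background was 1.69 to 2.05 in the controls and 1.99 to 2.34 in HADA libraries, and the lists held 34045 to 41475 peaks for control and 44044 to 45799 for HADA libraries. The lowest pileup called as a peak was 7 to 9, so weaker accessibility could not be seen. The limit is higher where the local background is higher, and the lists give no local background where no peak was called, so a missing peak does not show that a region was closed. At markers of other cell types, control 3 had 9 peaks in the 10 B cell genes, against 32 and 28 in the other control libraries and 49 to 54 in HADA libraries, so the limma differences of the 4 Klr regions found in all 6 libraries, and the summed levels of the cell type markers, are also given without control 3.

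**Figure D1:**
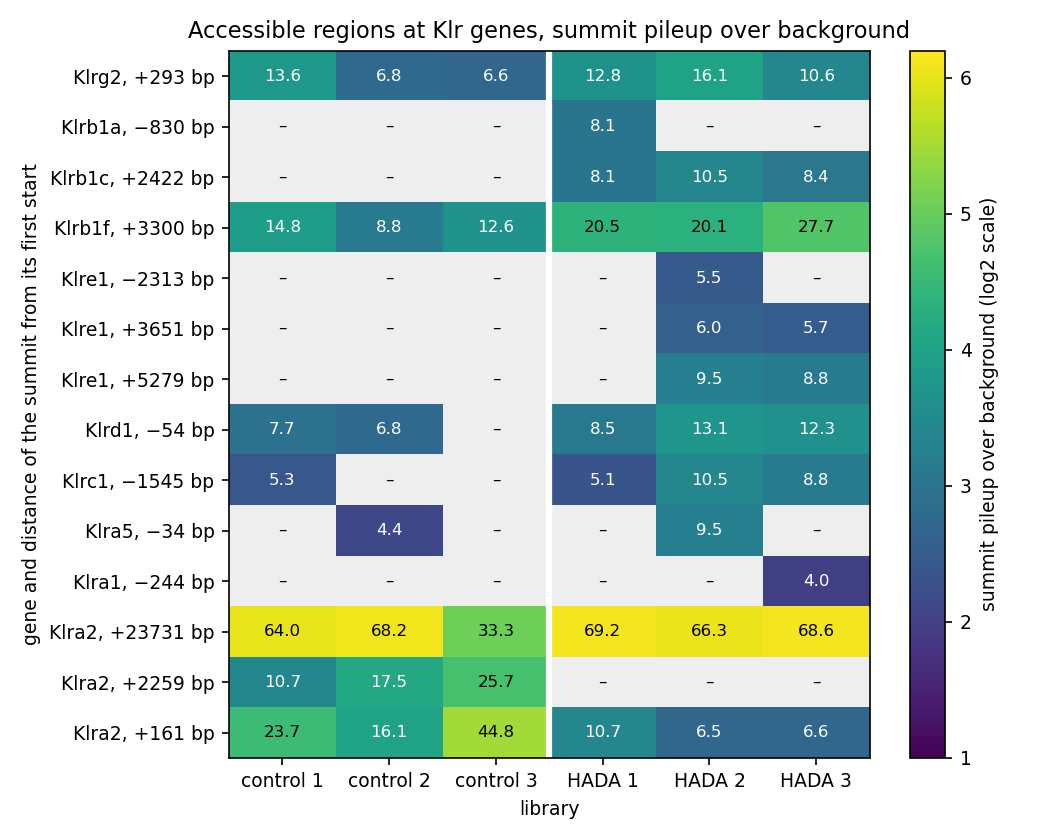
Summit pileup over background in each of the 14 Klr regions (rows, named by gene and by distance in bp from its first annotated start) and each of the 6 libraries (columns). Colours are on a log2 scale, numbers are linear, and a dash marks a library with no peak. The Klra2 intron at +2259 bp is filled in the 3 control columns only, and the Klrb1c intron in the 3 HADA columns only.

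Among inhibitory receptors, Klra2 gave most of the peaks. Klra2 encodes Ly49B, which unlike most Ly49 receptors is found on myeloid cells. At its start (chr6:131223657-131224644, summit 156 bp inside the nearest start), the pileup was 40, 33 and 82 in control 1, 2 and 3. It was 25, 13 and 15 in HADA 1, 2 and 3. Every HADA library lay below every control library. The pileup over background was 28.2 ± 14.9 in the controls and 7.94 ± 2.38 in HADA libraries (SD, n = 3 each). The region was lower in HADA by limma on median-centred log2 pileup, fitted over all 23970 regions with a peak in all 6 libraries (log2 difference -2.12 ± 0.39 SE, 95% interval -3.02 to -1.21, adjusted p = 0.0102). Without control 3, the library with the tallest peak, the difference was -1.71 (limma, adjusted p = 0.0065). When regions were ranked by the authors' fold enrichment instead, the ranks were turned into normal scores, which are not log2 units. On that scale the difference was -0.70 and did not pass (limma, adjusted p = 0.128).

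A second Klra2 region, in the intron 2254 bp inside the start (chr6:131221778-131222440), had a pileup of 18, 36 and 47 in control 1, 2 and 3 and no peak in any HADA library. It was the only one of the 14 Klr regions with peaks in 3 control and 0 HADA libraries, a pattern held by 1.88% of all regions.

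The third Klra2 region lay 23.7 kb inside the gene (chr6:131199516-131201376). Its pileup was 108, 140 and 61 in the controls and 162, 132 and 156 in HADA libraries, the tallest of all Klr regions. The groups overlapped, and the difference was -0.01 ± 0.26 (limma log2 difference ± SE, adjusted p = 0.984). By rank of fold enrichment it was 1.26 in normal scores, not log2 units (limma, adjusted p = 0.0325), so its direction depends on the measure. Without control 3 the log2 difference was -0.33 (limma, adjusted p = 0.188). With its summit sequence present 10566 times, reads cannot be assigned to this place with certainty.

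The other inhibitory genes with a peak were Klrc1, Klra5 and Klra1. Klrc1 encodes NKG2A, which with CD94 recognises the nonclassical class I molecule Qa-1. Its region 1545 bp upstream of the nearest start (chr6:129657212-129657714) had a pileup of 9 in control 1 and no peak in control 2 and 3, against 12, 21 and 20 in HADA 1, 2 and 3. Over background this was 5.33 in control 1 and 5.13, 10.5 and 8.79 in HADA 1, 2 and 3, so HADA 1 lay below control 1 on that scale. Klra5, which encodes Ly49E, had a peak 34 bp upstream of its start with a pileup of 9 in control 2 and 19 in HADA 2. Klra1, which encodes Ly49A, had a peak of pileup 9 in HADA 3 alone, at the lower limit of what was called. No difference was tested at these genes, since limma was run only on regions with a peak in every library.

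Activating receptors gave 3 regions. Klrb1f encodes NKR-P1F, whose ligands are lectin-like molecules of the Clec2 genes in the same complex. Its intron region (chr6:129025711-129026898, 133 bp upstream of an internal start and 3300 bp inside the first one) also lay in the overlapping gene Gm44000. The pileup was 25, 18 and 23 in the controls and 48, 40 and 63 in HADA libraries, and all HADA values lay above all control values. Pileup over background was 12.05 ± 3.06 and 22.8 ± 4.28 (SD, n = 3 each). The centred log2 difference was 0.56 ± 0.23 (limma, SE, 95% interval 0.02 to 1.09, adjusted p = 0.0847) and did not pass. Scaled to the background without centring, it was 0.94 (limma, adjusted p = 0.00625). Without control 3 it was 0.61 (limma, adjusted p = 0.0800).

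Klrb1c encodes NKR-P1C, the antigen by which NK cells of C57BL/6 mice are commonly stained. Its intron region (chr6:128763312-128764013, 1817 bp inside the nearest start and also in Gm44511) had no control peak and pileups of 19, 21 and 19 in HADA libraries. It was the only Klr region with peaks in 3 HADA and 0 control libraries, 1 of 14, beside 7.01% of all regions. No region had this pattern with summits joined only within 200 bp or with the strongest 34045 peaks of each library, and 2 had it without control 1 and 3 without HADA 1. By gene, Klrb1c was 1 of 27 members with that pattern, against 1.46% of all protein-coding genes, and no member had a peak in 3 control and 0 HADA libraries, against 0.331%. Klrb1a, which encodes NKR-P1A, had a peak of pileup 19 in HADA 1 alone, 830 bp upstream of its start.

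The partner chains gave 4 regions. Klrd1 encodes CD94, the common chain of the NKG2A, NKG2C and NKG2E receptors. The region 54 bp upstream of its start (chr6:129568436-129568979) had a pileup of 13 and 14 in control 1 and 2, no peak in control 3, and 20, 26 and 28 in HADA libraries. The pileup over background was 7.70 and 6.82 in those control libraries and 8.55, 13.1 and 12.3 in HADA libraries. Klre1, whose product pairs with Klri1 or Klri2, had 3 regions, none of them in a control list. Its exon region (chr6:129559850-129560363) had pileups of 19 and 20 in HADA 2 and 3, its intron region (chr6:129558491-129559051) 12 and 13 in the same libraries, and its upstream region (chr6:129552286-129552708) 11 in HADA 2. HADA 1, which had the highest background, had no Klre1 peak.

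Of the unclassed genes, Klrg2 had a region in all 6 libraries (chr6:38612903-38614264, in an exon 239 bp inside the nearest start). Its pileup was 23, 14 and 12 in the controls and 30, 32 and 24 in HADA libraries. The log2 difference was 0.23 ± 0.24 (limma, SE, adjusted p = 0.457) and did not pass. A single library moved this value, to 0.06 without control 3 (limma, adjusted p = 0.872) and to 0.47 without control 1 (limma, adjusted p = 0.117), and it ranged over 0.06 to 0.47 as each library was left out. Klrg2 is the Klr gene farthest from the complex, and Klrg1, whose product binds cadherins, had no peak in any library and no summit closer to its start than 8.91 kb.

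In the limma comparison, 1 of the 4 Klr regions with a peak in all 6 libraries was lower in HADA, where 24.1% of all such regions were. None was higher, where 17.9% of all were, and 1, Klrb1f, was higher at an unadjusted p under 0.05 with limma. By rank of fold enrichment, 1 was higher with limma, the Klra2 repeat. The median log2 difference of the 4 regions was 0.11, against -0.04 over all regions. On the centred scale the groups did not overlap at Klrb1f (HADA higher, as at 29.4% of all regions) or at the start of Klra2 (HADA lower, as at 31.2%). The scaling mattered across the whole table. Higher calls were 42.7% of all calls when values were centred, 62.8% when pileup was divided by the background without centring, and 57.8% with ranks. The median region shifted by 0.34 in the uncentred fit.

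Peaks at Klr genes were more frequent in HADA lists. Control 1, 2 and 3 had 7, 7 and 5, and HADA 1, 2 and 3 had 8, 11 and 10. Per 10000 peaks of the library, this was 1.69, 1.70 and 1.47 in control (1.62 ± 0.130, SD, n = 3) and 1.80, 2.50 and 2.18 in HADA (2.16 ± 0.348), a difference of 0.543. It was 0.873 without Klra2 and 1.57 with a window of 10 kb around starts. Klr genes with a peak numbered 5, 5 and 3 in the controls and 7, 8 and 8 in HADA libraries, a mean difference of 3.33 that was 7.67 with the 10 kb window. All HADA values lay above all control values on each of these counts, also without control 3, and no test was made of a total over the members. The number of genes with a peak was also higher in every HADA library over all protein-coding genes, of which 14123, 13985 and 13194 had a peak in control 1, 2 and 3 and 14360, 14352 and 14543 in HADA 1, 2 and 3. Of the 14 regions, 8 were in more HADA than control libraries (35.5% of all regions were) and 1 in more control than HADA libraries (22.7% of all).

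Peaks were also counted by receptor class. The inhibitory genes had 4, 4 and 3 peaks in the controls and 3, 4 and 4 in HADA libraries, or 0.262 ± 0.0412 peaks per gene in either group. Of these, Klra2 had 3 peaks in each control and 2 in each HADA library. Without Klra2 the inhibitory genes had 1, 1 and 0 peaks in the controls and 1, 2 and 2 in HADA libraries. The activating genes had 1 peak in each control library and 3, 2 and 2 in HADA libraries, or 0.111 against 0.259 ± 0.0642 peaks per gene (SD, n = 3). Peaks over all protein-coding genes were also more in every HADA library, at 29159, 28696 and 29394 against 26344, 25228 and 21991 in the controls. The partner chains had 1, 1 and 0 against 1, 4 and 3. At least 1 peak was found at 4 of 14 inhibitory and 3 of 9 activating genes. With a window of 10 kb around starts, HADA minus control was 0.310 peaks per inhibitory gene and 0.222 per activating gene, and with the strongest 34045 peaks of each library it was -0.0476 and 0.0741. These are counts over few peaks, and the classes were not tested against each other.

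**Figure D2:**
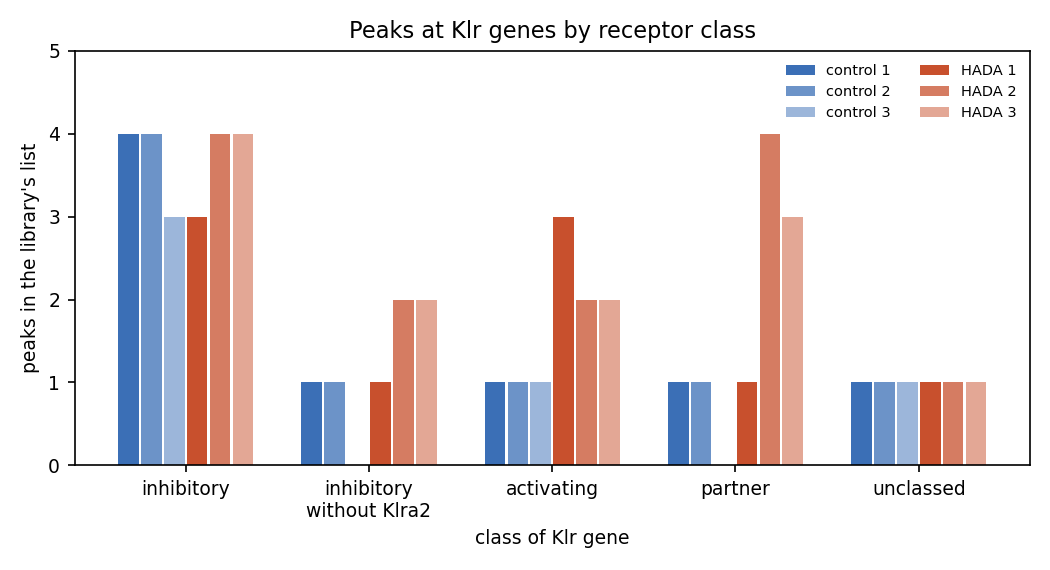
Number of peaks in each library's list (vertical axis) at Klr genes of each class (horizontal axis), with 1 bar for each of the 3 control (blue) and 3 HADA (orange) libraries. Inhibitory genes are also drawn without Klra2. Activating genes had 1 peak in each control library and 2 or 3 in each HADA library. All protein-coding genes together had 21991 to 26344 peaks in control and 28696 to 29394 in HADA libraries.

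The 17 genes with no peak in any library were 8 Ly49 genes (Klra3, Klra4, Klra6, Klra7, Klra8, Klra9, Klra10 and Klra17), Klrb1, Klrb1b, Klrc2, Klrc3, Klrg1, Klrh1, Klri1, Klri2 and Klrk1. They included Klrk1, which encodes NKG2D, the receptor for stress-induced ligands, and Klra8, which encodes Ly49H, the receptor for a protein of mouse cytomegalovirus. Ly49 genes had a peak in 3 of 11 cases (27.3%) and the other Klr genes in 7 of 16 (43.8%).

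Some starts are copies of each other, which can limit what short reads show. The study's paired-end reads were longer than the 50-base windows counted here, and their placement was not tested. Over the 1 kb around each first start, the share of 50-base windows found once in the genome was 30.5% at Klrc2, 30.6% at Klrc3, 53.0% at Klra10, 56.0% at Klra9, 58.5% at Klra8 and 72.6% at Klra4. At 4 genes (Klrc3, Klra4, Klra9 and Klra10) the 100 bases centred on the start had an identical copy elsewhere in the complex, and none of these had a peak. The starts of Klra9 (chr6:130171229-130171308) and Klra10 (chr6:130261853-130261932) are shown from 50 bases upstream, on the minus strand on which both genes lie, and differ at 0 positions.
Klra9 start: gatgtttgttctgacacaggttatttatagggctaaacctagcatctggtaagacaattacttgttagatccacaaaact
Klra10 start: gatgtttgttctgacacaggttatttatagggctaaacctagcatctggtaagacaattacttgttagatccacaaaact
Of the 17 genes with no peak, 9 had over 95% of their start windows found once, among them Klrk1, Klrb1, Klrb1b and Klrg1 at 100%. Of the 10 genes with a peak, 7 did. The part of sequence copies in the missing peaks was not tested. Whether multiply placed reads were kept is not given in the sources used here.

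**Figure D3:**
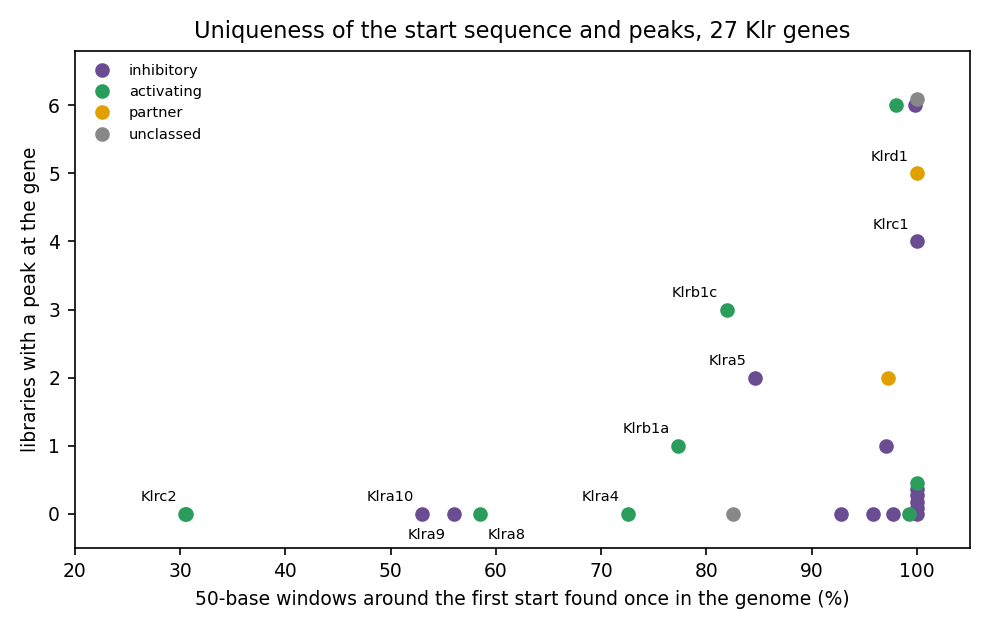
Share of 50-base windows around the first annotated start that occur once in the genome (horizontal axis, %) against the number of libraries with a peak at the gene (vertical axis) for the 27 Klr genes, coloured by class. Points that would coincide are stacked slightly upwards. Klrc2 and Klrc3, near 30%, and Klra9 and Klra10 had no peak, and several genes at 100% also had none.

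Most accessible chromatin of the complex lay between the Klr genes. From Klrb1a to Klra2 there were 114 regions, of which 101 were not at a Klr gene. The Klrb1 and Clec2 stretch of 666 kb held 62 regions, with 21 to 33 peaks per control library and 46 to 51 per HADA library. Peaks over the whole of chromosome 6 were also more in every HADA library, at 2341, 2315 and 2431 against 2162, 2168 and 1779 in the controls. The Ly49 cluster from Klra17 to Klra1, 556 kb with 10 Klr genes, held 9 regions and 1.80 to 10.8 peaks per Mb, against 11.9 to 16.3 over chromosome 6. Upstream of Klrb1c, at 10.4 kb from its start, a region inside Gm44511 had pileups of 184, 141 and 179 in the controls and 297, 217 and 239 in HADA libraries (limma log2 difference -0.05 ± 0.19 SE, adjusted p = 0.850). A region 13.3 kb upstream of Klrb1b, which encodes an inhibitory receptor for a Clec2d product, had 148, 136 and 179 against 232, 205 and 204 (limma log2 difference -0.15 ± 0.20 SE, adjusted p = 0.567). Both were taller than any Klr region of unique sequence, and neither passed the test. Of the 34 regions of the complex in all 6 libraries, 3 were higher and 7 lower in HADA by limma, and 9 of these 10 were not at a Klr gene. Over all such regions of the genome, 17.9% were higher and 24.1% lower. The stretch of other lectin genes had 18, 14 and 17 peaks in control 1, 2 and 3 and 17, 14 and 14 in HADA 1, 2 and 3, and 4 of its 8 regions in all 6 libraries were lower by limma. The 1 region of the Ly49 cluster in all 6 libraries, 30.6 kb upstream of Klra4, had pileups of 17, 30 and 14 in control 1, 2 and 3 and 14, 16 and 15 in HADA 1, 2 and 3. These overlapped before centring, and on the centred scale the region was lower in HADA (limma log2 difference -0.99 ± 0.28 SE, adjusted p = 0.0262).

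Some regions beyond the 3 kb limit lay near Klr genes that had no peak by the rule. A region 9.07 kb upstream of Klrb1 had no control peak and pileups of 38, 25 and 27 in HADA libraries. A region 4.47 kb upstream of Klra7, which encodes Ly49G, had none in the controls and 21, 14 and 11 in HADA libraries. The region closest to Klrk1, 15.3 kb from its start and past its last exon, had 17, 17 and 11 in the controls and 26, 34 and 28 in HADA libraries (limma log2 difference 0.36 ± 0.22 SE, adjusted p = 0.220). A region 7.10 kb upstream of Klri2 had 42, 40 and 30 against 37, 44 and 43 (limma log2 difference -0.47 ± 0.19 SE, adjusted p = 0.0846).

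**Figure D4:**
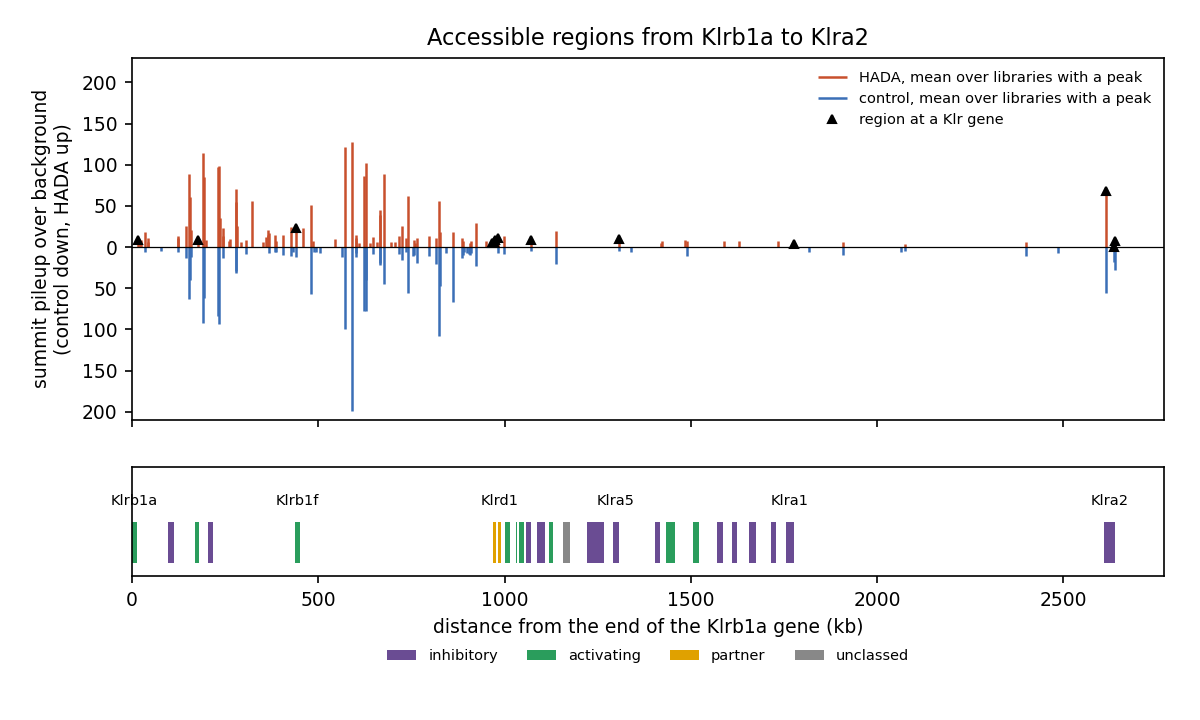
Mean summit pileup over background of every region between Klrb1a and Klra2 (vertical axis, HADA upwards and control downwards, over libraries with a peak) against the distance from the end of Klrb1a in kb. Triangles mark regions at Klr genes, and the lower track shows the 25 Klr genes coloured by class. Apart from the Klra2 repeat, the tall regions lie in the stretch of Klrb1 and Clec2 genes and of other lectins, and the Ly49 cluster is nearly bare.

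RUNX, T-box and ETS factors are known regulators of NK cell genes. Within 100 bp of the summit, RUNX matched in 6 of the 14 Klr regions (42.9%), at Klrb1a, Klre1 (in 2 regions), Klrc1, Klra5 and Klra1, against 17.6% of all regions. None of these 6 had a peak in all 6 libraries, and their pileups were 9 to 21. ETS matched in 2 (14.3%, against 11.4%), AP-1 in 2 (14.3%, against 5.50%), and T-box (0.816% of all), TCF (3.91%) and STAT (5.96%) in 1 each. The T-box match lay in the exon region of Klre1. A match describes the letters and does not show that a factor was bound.

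Because the cells were a mixture, fewer cells of a type and less accessibility per cell cannot be told apart. In the NK cell list, 11 of 12 genes had a peak (Xcl1 had none). Of its 14 regions in all 6 libraries, 3 were higher and 3 lower in HADA by limma, with a median log2 difference of 0.34. Over all such regions, 17.9% were higher and 24.1% lower. The 3 lower regions were at Nfil3 and Cd244a. Nfil3, needed for NK development and also used by myeloid cells, had pileups of 224, 186 and 300 in the controls and 179, 123 and 134 in HADA libraries at its start (limma log2 difference -1.32 ± 0.25 SE, adjusted p = 0.0102). The higher ones were 2 regions of Itga2 and 1 of Txk. The summed pileup over background of the NK list was 333 to 514 in the controls and 454 to 473 in HADA libraries, and the groups overlapped, also without control 3.

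Markers of other cell types were read in the same way, and the lists were not tested against each other. Of the 10 neutrophil genes, 8 had a peak (Camp and Ngp had none) and 7 of 8 shared regions were lower in HADA (median log2 difference -1.65, summed level 313 to 856 in the controls, 313 to 517 without control 3, and 155 to 302 in HADA). All 10 monocyte genes had a peak, and 7 of 11 shared regions were lower and 1 higher (median -0.94, summed level 367 to 538 with or without control 3, and 458 to 551). All 10 B cell genes had a peak, and 9 of 9 shared regions were higher (median 1.89, summed level 76.5 to 692, 427 to 692 without control 3, and 1835 to 1923). All 10 T cell genes had a peak, and 5 of 16 were higher and 0 lower (median 0.51, summed level 440 to 630 with or without control 3, and 818 to 907). These calls are by limma, and 17.9% of all shared regions were higher and 24.1% lower. The summed levels of these lists and of the NK list were not centred, unlike the log2 differences. Over all protein-coding genes the summed level was also higher in every HADA library, at 1.25e+06 to 1.45e+06 against 869217 to 1.21e+06 in the controls. Beside the lower start of Klra2, most shared regions of the neutrophil and monocyte lists were lower, while the summed level was lower in every HADA library than in every control library for neutrophils and overlapped between groups for monocytes. The part of cell makeup in any Klr difference was not tested.

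Genes that work with the receptors were read from the same fit, in which 17.9% of all shared regions were higher in HADA and 24.1% lower. A peak was found at 70.8% of all protein-coding genes. Of the 15 other lectin genes of the complex, 13 had a peak (Clec12b and Clec2h had none), and of 12 shared regions 2 were higher and 4 lower in HADA by limma (median log2 difference -0.11). All 9 adaptor and signalling genes had a peak, with 2 of 27 regions higher and 7 lower (median -0.24). Of the 9 genes of ligands, 8 had a peak (H60c had none), with 2 of 13 regions higher and 3 lower (median 0.01). The lower regions were all assigned to Raet1e (log2 difference -2.56, -2.27 and -1.19). The higher ones were at Ulbp1 (0.71) and at the start of H60b (0.66), the latter also assigned to Raet1e.

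**Figure D5:**
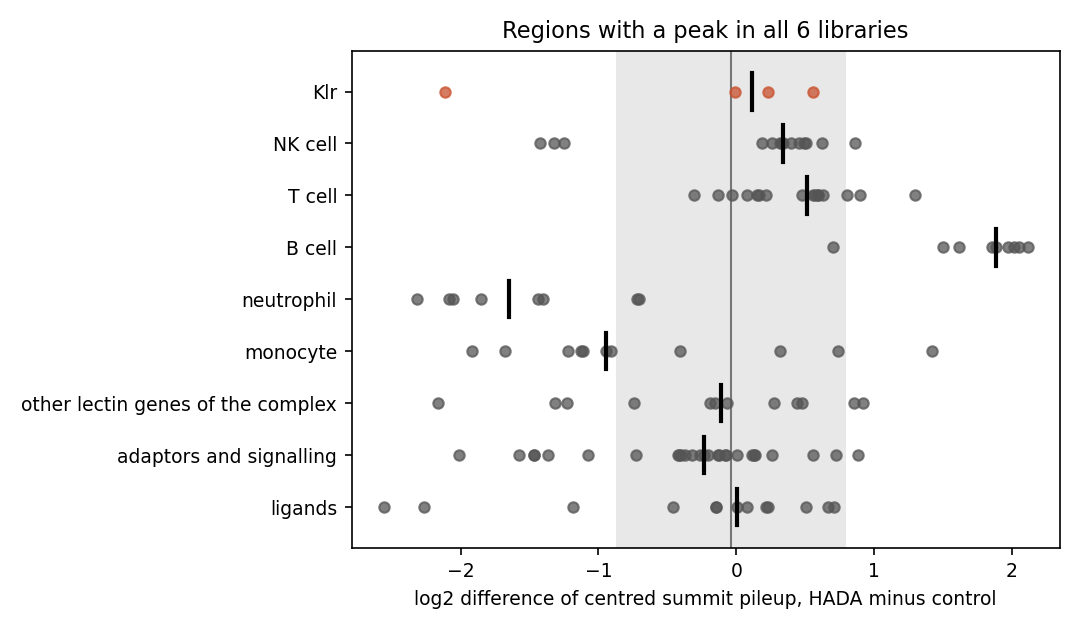
Log2 difference in centred summit pileup, HADA minus control (horizontal axis), of each region with a peak in all 6 libraries, by gene list (vertical axis). Each point is a region, black bars are list medians, and the grey line and band are the median and 1 SD of all 23970 regions. The start of Klra2 lies at -2.12, and the other 3 Klr regions lie between -0.01 and 0.56.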

How the data were processed

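ATAC-seq was performed on 3 control and 3 HADA libraries, grouped by their labels. The processing notes and the study's methods name Trimmomatic for trimming, Bowtie2 for alignment to GRCm39, Picard for duplicates and MACS2 for peaks, and the authors called each library alone, as the peak names show. Each deposited peak has a fold enrichment (a ratio over local background), significance as −log10 of p and of q, a whole-number score and a summit offset. The MACS2 options and any Tn5 shift are not given in the sources used here.

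The summit pileup and local background were solved from the deposited fold and −log10 p-value for 100% of peaks. Peaks sharing 1 bp were merged. Regions with a peak in all 6 libraries were compared with limma 3.58.1 (R 4.3.3) on log2 pileup centred on the median region, with Benjamini-Hochberg adjustment at 0.05 over all of them, after the steps were tested on simulated data. Genes came from GENCODE M39. Exact copies of 50 bases were counted on both strands of the main chromosomes. Values in every library are given for Klr regions in all 6 libraries or in every library of 1 group alone, and the other regions and genes were named after their values were seen. The members and lists were chosen with earlier results of these data known. Alternatives covered the height measure, scaling, peak filters, merging, gene windows, the replicate block and leaving out each library. Receptor classes came from textbook roles and were not checked against protein sequence. Precision is limited by pileups near the calling limit and by 3 libraries a group. No p-value over the members was computed.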

Additional observations from a re-analysis of the deposited data

How the results depend on the processing

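Of the results over all members, 97 values under alternatives moved by less than 1 SD between libraries, that of the more variable group (for counts of regions, stayed within 1.5 times) and 16 moved by more. By this measure 0.873 against 0.543 peaks per 10000 without Klra2 is among the first. By rank of fold enrichment, 1 Klr region was higher and 0 were lower in HADA, and by background without centring 1 was higher. With summits joined only within 200 bp, 0 regions were in HADA lists alone. With the strongest 34045 peaks of each library, which leaves fewer peaks to compare, 0 regions were lower and 0 were in HADA lists alone, and the differences per inhibitory and per activating gene were -0.0476 and 0.0741. With a window of 10 kb around starts, which takes in more peaks, 3 regions were in HADA lists alone, and the differences were 1.57 per 10000 peaks, 7.67 genes, 0.310 per inhibitory gene and 0.222 per activating gene. Without Klra2, an alternative chosen after seeing the data, the difference per inhibitory gene was 0.0769. Regions in HADA lists alone numbered 1 to 3 as each library was left out, with 2 without control 1 and 3 without HADA 1. The cause of these moves was not tested except where the alternative's construction is given.

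The Klra2 repeat region changed sign in 7 alternatives. By rank its difference was 1.26, in normal scores of the ranks and not in log2 units. Its log2 difference was 0.37 by background and 0.0017 at a −log10 q-value of at least 5. It ranged from -0.33 to 0.24 as each library was left out. The start of Klra2 kept its direction and passed in all fits run other than rank (-0.70 in normal scores). Its log2 difference was -2.39 to -1.71 as each library was left out. The repeat region has no value among summits found once or with summits joined within 200 bp, and the Klra2 start none among the strongest 34045 peaks. Klrg2 has none in the last 2 of these or at a −log10 q-value of at least 5. Each fit took only regions that held a peak from every library in it. Of the fits run, Klrb1f passed only by background without centring (0.94).

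The replicate numbers did not pair the libraries. Same-numbered libraries had correlations of -0.0797, 0.0751 and -0.376, and not every library correlated best with its own number. With the replicate number as a block, 0 Klr regions were higher and 1 lower, as without it, and over all regions 2991 were higher and 5660 lower, against 4291 and 5769. The lists hold no value below a pileup of 7 to 9, so a Klr peak in 1 or 2 libraries does not show a difference.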
